A study of Rattus norvegicus with 24 samples.

Results

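Cytochrome P450 families 1 to 3 are the enzymes with which the liver oxidises drugs, steroids, fatty acids and other lipophilic compounds, and they were followed here through liver arrays of 24 female rats. Members were all probe sets whose platform annotation gives a gene symbol beginning with Cyp1, Cyp2 or Cyp3 followed by a letter, 50 of the 20917 probe sets. Of these, 46 name 1 gene each and cover 38 genes, and 4 are shared by a pair of near-identical genes (Cyp2b15 and Cyp2b12, Cyp2c6v1 and Cyp2c6, Cyp2d1 and Cyp2d5, Cyp3a2 and Cyp3a23-3a1), so their signal cannot be assigned to either gene. Of the 50, 47 passed the filter on low signal, and Cyp2g1, Cyp2w1 and 1 of 2 Cyp1b1 probe sets did not. A pair of Cyp2b3 probe sets held identical values on all 24 arrays and was counted once, which left 46 members tested among 15687 probe sets.

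The animals were adult Sprague-Dawley females of the F2 generation. A female belongs to the HFD line if her F0 grandfather was given a high-fat diet (HFD) and otherwise to the chow line. Each animal was in turn fed chow or an HFD with 42/45% of its energy from fat for 12 weeks. The chow line gave 7 animals on chow and 6 on HFD, and the HFD line gave 6 on chow and 5 on HFD. No group carried a mutation or a drug. Litter and grandfather of each animal are not among the labels, so p-values measure the spread between these animals, some of which may be littermates. The label text speaks once of gonadal fat, whereas titles, source names and tissue entries all say liver. The hepatocyte marker Alb had the highest mean intensity of all probe sets (11499), and the defining fat-cell genes Adipoq, Plin1 and Lep had mean intensities of 52.3, 62.8 and 39.3, against array medians of 97.9 to 127.6. Of the other 6 fat-cell markers, Cidec (1429) and Lipe (204.0) were brighter than these medians, Cfd (119.3) lay among them and 3 lay below.

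Arrays carry the animal numbers of the sample titles. Arrays 21 and 25 (chow line on chow), 22 (chow line on HFD) and 24 (HFD line on HFD) stood apart on principal component 2 of the deviations from the group means (15.1% of their variance), with scores of 19.5 to 24.8 against 7.82 or less on the other 20 arrays. Values without these 4 are given for some of the results, not for every value they alter.

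P450 enzymes sit in the endoplasmic reticulum, carry a heme group and receive electrons from P450 oxidoreductase. In hepatocytes the aryl hydrocarbon receptor switches on family 1, the constitutive androstane receptor (CAR) acts mainly on Cyp2b genes, and the pregnane X receptor (PXR) mainly on Cyp3a genes. In rats several Cyp2c, Cyp2a and Cyp3a genes also differ between the sexes, under the pattern of growth hormone release.

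The largest differences for own diet in the chow line were found among the 5 Cyp3a probe sets. These ranged from 0.09 to 1.21 in log2 units with a median of 0.69, and none passed the threshold given below. Cyp3a2 has no probe set of its own, so its level was not measured apart from that of Cyp3a23-3a1. The upstream sequences of Cyp3a23-3a1 and Cyp3a2 hold an element for which the subfamily is known. These 2 are given here beside Cyp3a18, which lacks it. RefSeq (GRCr8) holds upstream windows for 36 of the 38 genes. Each line below is the 250 bases before the start of transcription, 5′ to 3′ on the gene's strand, with capitals marking AGTTCA and AGGTCA half-sites on either strand. The windows lie at chr12:14398804-14399053 (minus strand) for Cyp3a23-3a1, at chr12:14343858-14344107 (minus strand) for Cyp3a2 and at chr12:13994062-13994311 (plus strand) for Cyp3a18.
Cyp3a23-3a1: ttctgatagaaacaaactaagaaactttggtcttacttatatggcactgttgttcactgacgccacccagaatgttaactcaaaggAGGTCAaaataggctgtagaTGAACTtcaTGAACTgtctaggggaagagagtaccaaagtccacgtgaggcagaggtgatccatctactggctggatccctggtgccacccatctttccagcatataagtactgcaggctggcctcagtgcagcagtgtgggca
Cyp3a2: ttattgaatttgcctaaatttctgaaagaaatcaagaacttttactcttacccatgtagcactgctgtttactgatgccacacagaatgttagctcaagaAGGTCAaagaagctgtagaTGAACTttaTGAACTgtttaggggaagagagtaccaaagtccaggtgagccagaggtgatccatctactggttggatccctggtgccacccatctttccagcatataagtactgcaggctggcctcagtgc
Cyp3a18: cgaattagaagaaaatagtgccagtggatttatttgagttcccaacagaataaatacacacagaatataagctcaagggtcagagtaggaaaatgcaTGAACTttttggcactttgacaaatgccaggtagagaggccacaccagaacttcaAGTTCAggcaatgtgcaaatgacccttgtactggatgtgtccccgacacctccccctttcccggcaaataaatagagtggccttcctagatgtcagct

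Cyp3a23-3a1 and Cyp3a2 each held AGTTCANNNAGTTCA, a direct repeat of the half-site with 3 bases between, read on the opposite strand. It lay 144 to 130 bases before the start in Cyp3a23-3a1 and 131 to 117 bases before it in Cyp3a2. Searched on both strands of all 33469 upstream windows of the same length, this repeat occurred in these 2 alone (0.00598%). Repeats of this kind are the textbook binding element of PXR with its partner RXR in rat Cyp3a promoters. The single half-sites are common, AGTTCA in 12.2% and AGGTCA in 14.1% of windows. Cyp3a18 held AGTTCA at 153 to 148 and at 98 to 93 bases before its start without the repeat, and Cyp3a9 held it at 73 to 68 bases. Aligned on the repeat with no gaps, the Cyp3a23-3a1 and Cyp3a2 windows shared 165 of 237 bases (69.6%).

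Signals below are log2(intensity + 16) on each array, differences are HFD minus chow or HFD line minus chow line in log2 units with their standard error (SE), and adjusted p-values are from limma with Benjamini-Hochberg adjustment over all 15687 probe sets, with 0.05 as the threshold. When own diet was averaged over both lines, 3 of 46 members passed (6.52%), against 1.99% of all probe sets. Cyp2c22 rose (0.363% of all probe sets were called higher), and Cyp2r1 and Cyp2d4 fell (1.63% were called lower). Under quantile normalization or centring of each array on its median, 2 rose and 1 fell, because Cyp2d4 missed the threshold and a dim Cyp2c12 probe set passed it.

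Cyp2r1, a hydroxylase that carries out the first step of vitamin D activation in the liver, was lower on HFD in both lines. In the chow line its signal ran from 8.67 through a median of 9.08 to 9.41 on chow, and from 8.31 through 8.48 to 8.95 on HFD. HFD-line animals ran from 8.61 through 8.78 to 8.85 on chow, and the 5 animals on HFD stood at 8.42, 8.02, 7.82, 8.47 and 8.59. The diet groups of the HFD line therefore did not overlap, as for 3.04% of all probe sets in that comparison, and those of the chow line overlapped only between 8.67 and 8.95. The averaged difference was -0.49 ± 0.10 (SE, 1.41-fold lower, adjusted p = 0.0039), with -0.50 ± 0.13 in the chow line (adjusted p = 0.13) and -0.49 ± 0.14 in the HFD line (adjusted p = 0.093), and an interaction of 0.00 ± 0.19 (adjusted p = 1). The grandpaternal differences were -0.29 ± 0.13 on chow (adjusted p = 0.51) and -0.29 ± 0.14 on HFD (adjusted p = 0.45). Of the 3 called members, Cyp2r1 alone kept its call when any 1 array was left out (24 of 24 fits, adjusted p up to 0.012). Its signal followed array brightness steeply, with a slope of 2.21 on the array median over all arrays, group differences included. It passed after centring too, but centring takes out a slope of 1 only. The part of array brightness in its difference was not tested.

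Cyp2d4, a member of the Cyp2d subfamily also known from the brain, was lower on HFD mainly among HFD-line animals. On chow it ran from 9.66 through 10.11 to 10.35 in the chow line and from 9.56 through 10.19 to 10.47 in the HFD line. On HFD it ran from 9.69 through 9.83 to 10.12 in the chow line, and the 5 HFD-line animals stood at 9.43, 9.73, 9.59, 9.42 and 9.54. All 5 lay below 9.79, the value of 1 of the 2 lowest HFD-line chow animals, and overlapped only the other at 9.56. The averaged difference was -0.36 ± 0.09 (1.28-fold lower, adjusted p = 0.039), with -0.53 ± 0.14 in the HFD line (adjusted p = 0.063), -0.19 ± 0.13 in the chow line (adjusted p = 0.74) and an interaction of -0.34 ± 0.19 (adjusted p = 0.56). The call was lost in 17 of 24 fits that left out 1 array (arrays 25 to 29, 31, 32, 34, 35, 37, 38, 41, 42, 24 and 45 to 47, adjusted p = 0.051 to 0.077), and also without the 4 arrays that stood apart (-0.38, adjusted p = 0.063).

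Cyp2c22, an enzyme that hydroxylates retinoic acid, was higher on HFD. In the chow line it ran from 11.44 through 11.75 to 12.16 on chow and from 11.55 through 12.15 to 12.31 on HFD. In the HFD line it ran from 11.22 through 11.51 to 12.12 on chow, and stood at 11.98, 11.98, 11.86, 12.11 and 12.00 on HFD. Among HFD-line animals 1 chow animal, at 12.12, reached the level of the HFD group and the other 5 lay below it. The averaged difference was 0.38 ± 0.10 (1.30-fold, adjusted p = 0.035), from 0.31 ± 0.13 in the chow line (adjusted p = 0.48) and 0.45 ± 0.14 in the HFD line (adjusted p = 0.12). It lost its call without any 1 of 12 arrays (31, 32, 33, 35, 37, 38, 40, 41, 42, 24, 44 and 46, adjusted p = 0.052 to 0.064).

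**Figure D1:**
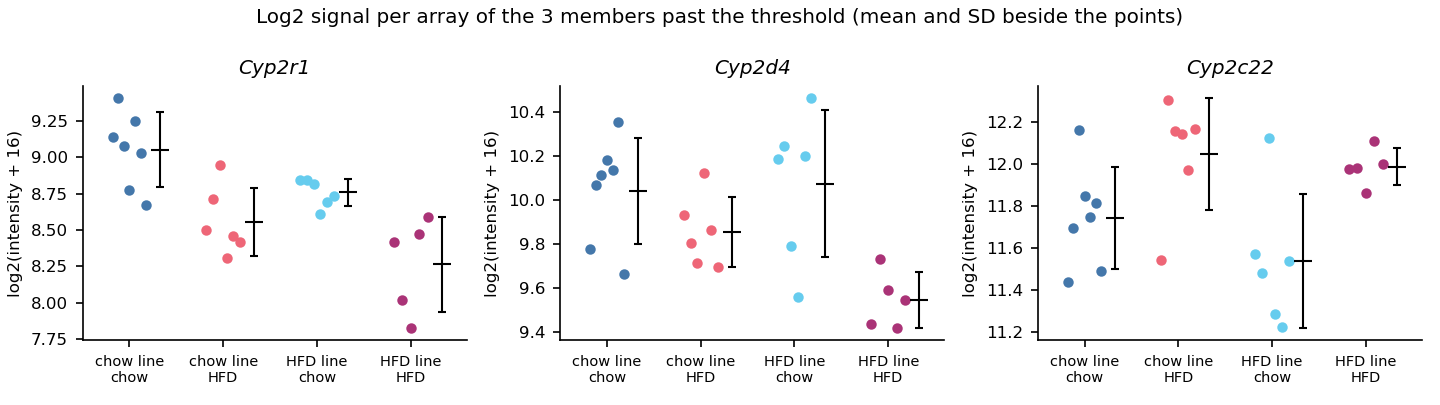
Log2(intensity + 16) of Cyp2r1, Cyp2d4 and Cyp2c22 (vertical axes) on each of 24 arrays in the 4 groups (horizontal axis), with 1 point per animal and the group mean ± SD in black beside the points. Cyp2r1 is lower on HFD in both lines, the 5 HFD-line HFD animals lie at 9.42 to 9.73 for Cyp2d4, and Cyp2c22 is higher on HFD with 1 chow animal of the HFD line at 12.12.

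Within single lines, and for every grandpaternal comparison, no member passed. For own diet in the chow line 0 of 46 members were called, where 0.319% of all probe sets were, and 16 were higher and 1 lower at an unadjusted limma p under 0.05 (37.0% of members, against 8.8% of all probe sets). In the HFD line 0 of 46 were called (0.752% of all, 0.0956% higher and 0.657% lower), with 2 higher and 6 lower at an unadjusted p under 0.05 (17.4% against 15.8%). The interaction of the diets called 0 of 46 members and 0% of all probe sets, with 10 members, all negative, at an unadjusted p under 0.05 (21.7% against 9.71%). A positive interaction was seen in 15.2% of members and 29.8% of all probe sets. The members' median difference for own diet was 0.10 in the chow line (all probe sets 0.01), 0.17 without the 4 arrays that stood apart and 0.05 after quantile normalization, and -0.08 in the HFD line (all probe sets -0.09), which became -0.0055 after quantile normalization. In the chow line 33 of 46 were higher on HFD (71.7%, against 54.4% of all probe sets), and 29 after quantile normalization. In the HFD line 10 were higher (21.7%, against 28.4% of all probe sets) and 36 lower. These became 23 and 23 after quantile normalization.

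Grandpaternal diet called 0 of 46 members on chow, on HFD and averaged, and 0% of all probe sets in each. On own chow 4 members were higher and 3 lower in the HFD line at an unadjusted p under 0.05 (15.2% against 9.15%). On own HFD 0 were higher and 13 lower (28.3% against 11.0%), and averaged over own diets 2 were higher and 6 lower (17.4% against 11.0%). On own HFD 43 of 46 members were lower in the HFD line, and 6.52% of members were higher, against 19.0% of all probe sets. The members' median was -0.17, while the median of all probe sets was -0.10. The group mean of the arrays' median log2 signal was 7.83 in HFD-line HFD animals and 7.96 in each other group. After quantile normalization the median of all probe sets was -0.00 in that comparison, and 29 of 46 members were lower with a median of -0.06.

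**Figure D2:**
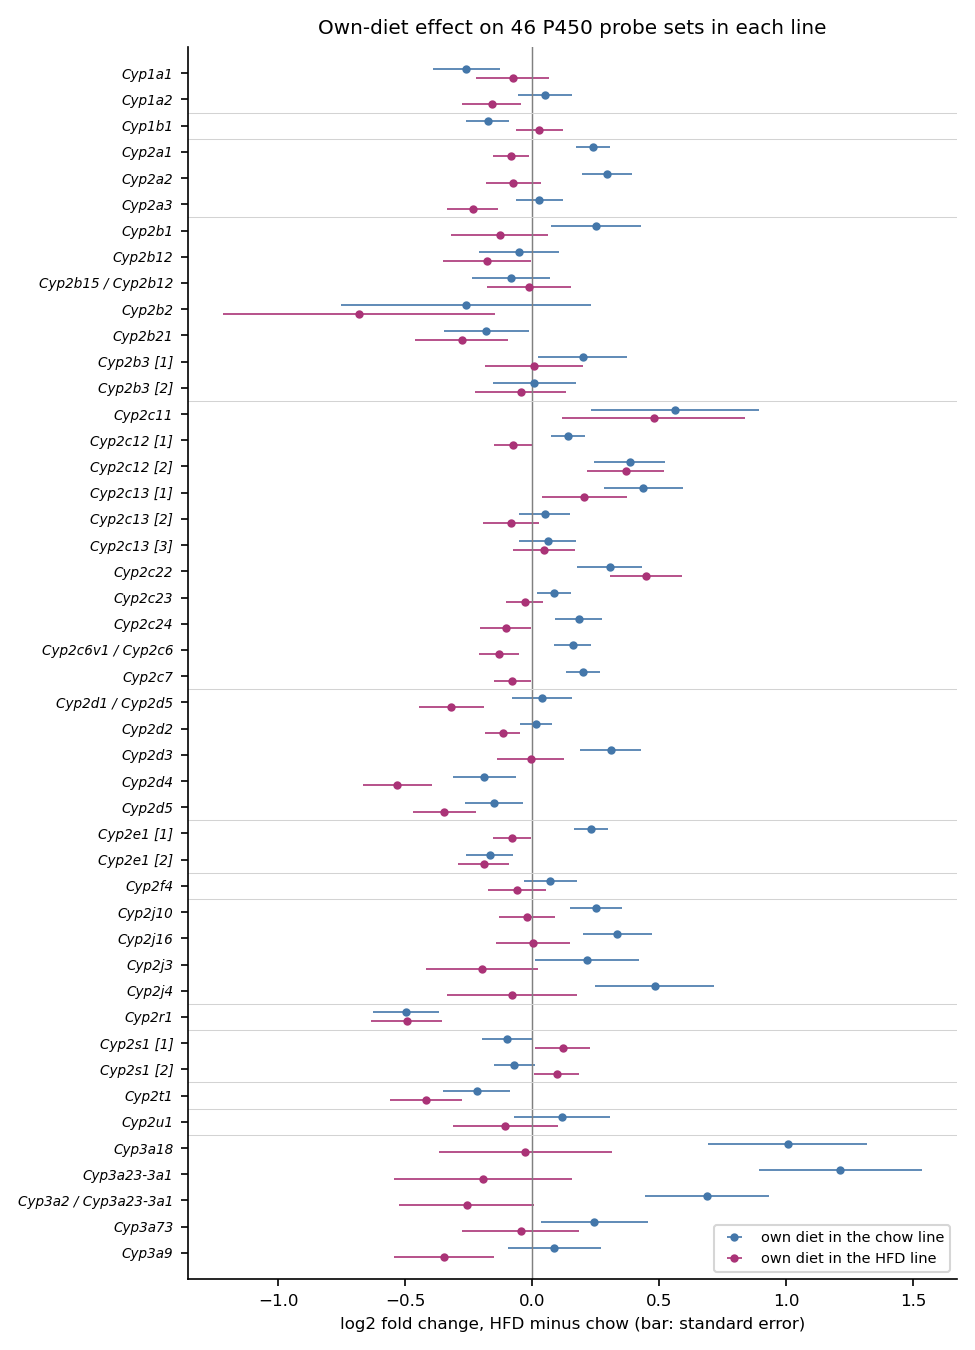
Log2 difference of HFD minus chow (horizontal axis, bars are SE) for the 46 distinct tested probe sets (vertical axis, grouped by subfamily, with probe sets of 1 gene numbered in brackets) in the chow line (blue) and the HFD line (purple). The 5 Cyp3a and 11 Cyp2c probe sets lie above 0 in the chow line, and Cyp2r1 lies near -0.49 in both lines.

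The largest differences for own diet in the chow line belonged to Cyp3a23-3a1 and Cyp3a18. Enzymes of the Cyp3a subfamily oxidise a wide range of drugs and steroids. Cyp3a23-3a1, a classic PXR-inducible gene, had its lowest mean in chow-line animals on chow, at 9.84, 10.36, 8.67, 11.18, 10.17, 8.97 and 9.34. It ran from 10.33 through 10.86 to 11.93 in the chow line on HFD and from 10.06 through 11.05 to 11.52 in the HFD line on chow, and stood at 10.58, 11.13, 10.77, 10.28 and 10.97 in the HFD line on HFD. Of the 7 chow-line chow animals, 4 lay below every animal of the other groups, and those at 10.17, 10.36 and 11.18 (array 27) lay within the range of the others.

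The group means of Cyp3a23-3a1 were 9.79 ± 0.87 (SD, n = 7), 11.01 ± 0.60 (n = 6), 10.94 ± 0.59 (n = 6) and 10.75 ± 0.33 (n = 5) in that order. Own diet in the chow line gave 1.21 ± 0.32 (SE, 2.32-fold, adjusted p = 0.13) and grandpaternal diet on chow gave 1.15 ± 0.32 (adjusted p = 0.44), and both rest on the same chow-line chow animals. The other differences were -0.19 ± 0.35 for own diet in the HFD line and -0.26 ± 0.35 for grandpaternal diet on HFD, and the interaction was -1.41 ± 0.48 (adjusted p = 0.34). Without array 27 own diet in the chow line gave 1.45 with adjusted p = 0.022, so that 1 animal decided the call.

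Cyp3a18, higher in male than in female rat liver, was highest in chow-line animals on HFD. It ran from 7.34 through 7.86 to 8.83 in the chow line on chow, from 7.81 through 8.97 to 9.95 in the chow line on HFD and from 7.45 through 7.93 to 8.83 in the HFD line on chow, and stood at 8.92, 8.01, 7.50, 7.08 and 8.64 in the HFD line on HFD. All groups overlapped, and 3 of the 6 chow-line HFD animals exceeded every chow animal. Own diet in the chow line gave 1.01 ± 0.31 (adjusted p = 0.25) and grandpaternal diet on HFD gave -0.92 ± 0.34 (adjusted p = 0.43), with an interaction of -1.03 ± 0.46 (adjusted p = 0.47).

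The probe set shared by Cyp3a2 and Cyp3a23-3a1 gave 0.69 ± 0.24 for own diet in the chow line (adjusted p = 0.38), Cyp3a73 gave 0.24 ± 0.21 and Cyp3a9 gave 0.09 ± 0.18. All 5 Cyp3a probe sets were thus higher on HFD in the chow line and higher in the HFD line on chow, and all 5 were lower in the HFD line on HFD, also after quantile normalization and after centring. Of all probe sets, 54.4%, 46.2% and 19.0% were higher in these comparisons, in that order. For own diet in the HFD line all 5 Cyp3a differences were negative (median -0.19), but 2 of 5 were positive after either scaling. In that comparison 28.4% of all probe sets were higher.

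Cyp2c genes, which make up much of the P450 of rat liver, were measured by 11 probe sets, and all 11 were higher on HFD in the chow line (0.05 to 0.56), with 10 of 11 so after quantile normalization. Of all probe sets 54.4% were higher in that comparison before quantile normalization. Besides Cyp2c22, the smallest adjusted p was that of the dim Cyp2c12 probe set (mean intensity 95.6), at 0.38 ± 0.10 averaged over lines (adjusted p = 0.052). The bright Cyp2c12 probe set (mean intensity 7357) gave 0.03 ± 0.05 (adjusted p = 0.83). Both followed array brightness weakly, with slopes on the array median of 0.43 (bright) and -0.041 (dim). These 2 Cyp2c12 values therefore cannot be compared in size. The 3 Cyp2c13 probe sets gave 0.32 ± 0.11, -0.02 ± 0.07 and 0.05 ± 0.08 at mean intensities of 53.1, 1041 and 1489, and so disagreed. Cyp2c23, an arachidonic acid epoxygenase, gave 0.09 ± 0.07 in the chow line and -0.03 ± 0.07 in the HFD line.

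Genes that mark female rat liver (Cyp2c12, Cyp2c7, Cyp2a1 and Cyp3a9) were all higher on HFD in the chow line and all lower in the HFD line on HFD, and none of the 4 passed (medians 0.17 and -0.23). The 4 male-biased genes with a probe set of their own (Cyp2c11, Cyp2c13, Cyp2a2 and Cyp3a18) went the same ways, also without a call (medians 0.43 and -0.24), though after quantile normalization 1 of these 4 was higher in the HFD line on HFD. Cyp2c13 was counted by its brightest probe set, and its dimmest was higher in the HFD line on HFD (0.13). Of all probe sets, 54.4% were higher on HFD in the chow line and 19.0% were higher in the HFD line on HFD. Cyp2a1, a testosterone hydroxylase, ran from 12.20 through 12.34 to 12.48 in the chow line on chow and from 12.49 through 12.56 to 12.74 on HFD, without overlap. In the HFD line it ran from 12.18 through 12.43 to 12.50 on chow and stood at 12.22, 12.11, 12.37, 12.43 and 12.46 on HFD, below every chow-line HFD animal. The differences were 0.24 ± 0.07 for own diet in the chow line (adjusted p = 0.17) and -0.26 ± 0.07 for grandpaternal diet on HFD (adjusted p = 0.28), and both use the same chow-line HFD animals. For Cyp2c7 these differences were 0.20 ± 0.07 (adjusted p = 0.34) and -0.19 ± 0.07 (adjusted p = 0.43).

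Groups without overlap were few. In the chow line they were found for Cyp2a1 alone between the diets (1 of 46, 2.17%, against 0.338% of all probe sets), and in the HFD line for Cyp2r1 alone (2.17% against 3.04%). On HFD the lines were apart for Cyp2a1, Cyp2c7 and Cyp2c24 (6.52% against 1.18%), and on chow for 1 of 2 Cyp2s1 probe sets (2.17% against 0.325%), at a mean intensity of 42.7.

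Cyp2c11, the main male-specific P450 of rat liver, had a mean intensity of 136.3 in these females, against array medians of 97.9 to 127.6. It ran from 6.52 through 6.89 to 7.10 in the chow line on chow, from 6.79 through 7.33 to 8.20 in the chow line on HFD and from 6.19 through 6.58 to 7.78 in the HFD line on chow, and stood at 9.28, 7.05, 6.12, 6.88 and 6.74 in the HFD line on HFD. The highest value, 9.28 on array 24, came from 1 of the 4 arrays that stood apart, and array 22 stood at 7.92. Own diet gave 0.56 ± 0.33 in the chow line and 0.48 ± 0.36 in the HFD line (adjusted p = 0.68 and 0.52). Without the 4 arrays these were 0.48 and -0.04 (adjusted p = 0.61 and 0.96). Of the other male-biased genes, own diet in the chow line gave 0.06 ± 0.11 for the brightest Cyp2c13 probe set, 0.30 ± 0.10 for Cyp2a2 (adjusted p = 0.33) and the 1.01 given above for Cyp3a18. The highest value of that Cyp2c13 probe set, 11.32 in the chow line on chow, came from array 21, also 1 of the 4. Of 10 growth hormone pathway genes tested, 0 passed in any comparison, and own diet in the chow line gave 0.05 ± 0.16 for Stat5b and -0.44 ± 0.27 for Cish.

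**Figure D3:**
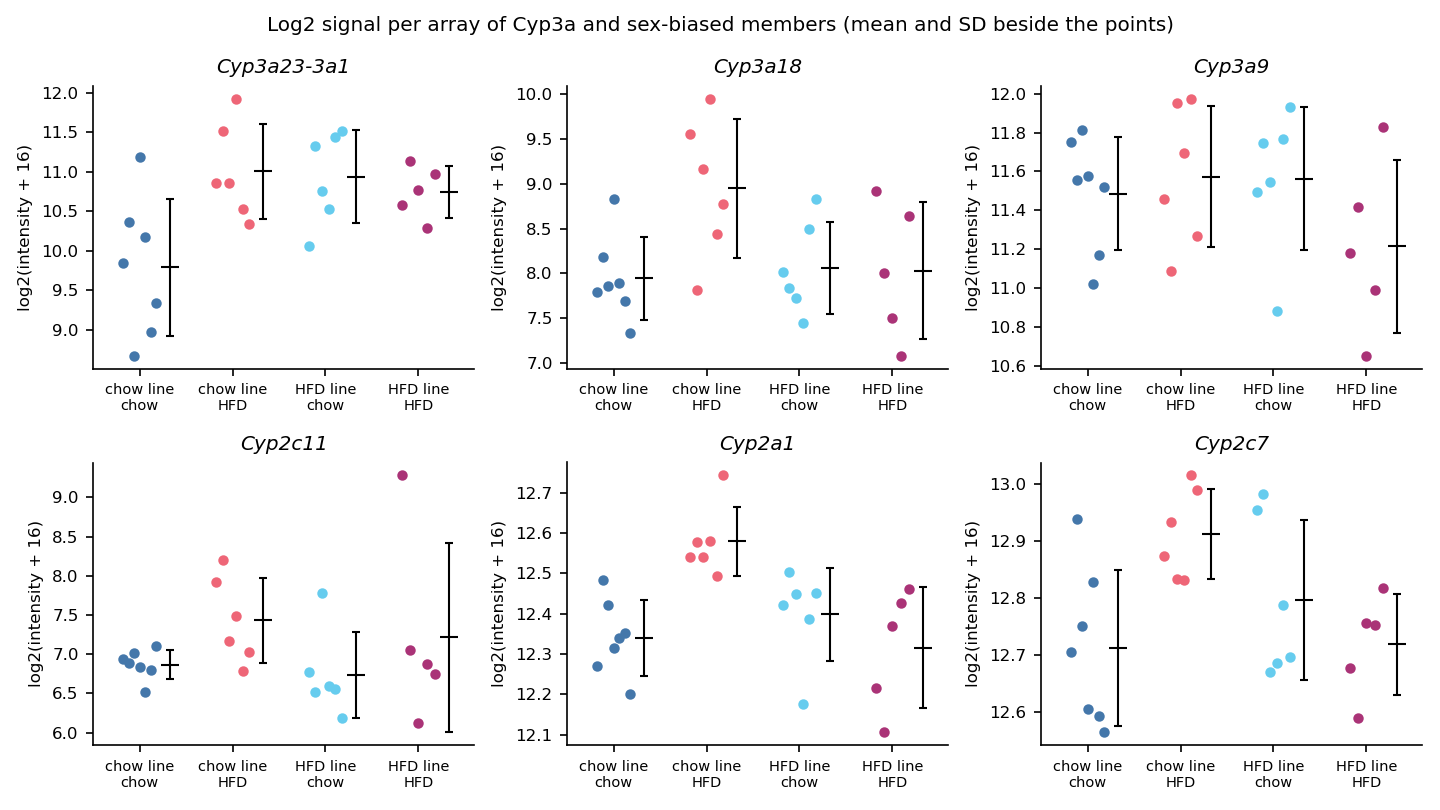
Log2(intensity + 16) (vertical axes, each with its own range) of 3 Cyp3a and 3 sex-biased genes on each array by group (horizontal axis), with 1 point per animal and mean ± SD in black. Cyp3a23-3a1 has its lowest mean (9.79) in chow-line chow animals, of which 3 of 7 overlap the other groups, Cyp2a1 is highest in chow-line HFD animals, and 1 HFD-line HFD animal reaches 9.28 for Cyp2c11.

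In the Cyp2d subfamily all 5 probe sets were lower on HFD in the HFD line (median -0.32), and 4 of 5 after either scaling. In that comparison 28.4% of all probe sets were higher before scaling. Cyp2d5 gave -0.35 ± 0.12 there (adjusted p = 0.18), and Cyp2d2, the brightest, gave -0.12 ± 0.07. Cyp2j genes, epoxygenases of arachidonic acid, were higher in all 4 probe sets on HFD in the chow line (0.22 to 0.48) and in the HFD line on chow (0.25 to 0.71), under each scaling too, and none passed. Of all probe sets, 54.4% and 46.2% were higher in these comparisons before scaling. Cyp2j4 ran from 9.03 through 9.28 to 10.45 in the chow line on chow and from 9.27 through 10.33 to 10.74 in the HFD line on chow, with a difference of 0.71 ± 0.23 (adjusted p = 0.45). Cyp2t1 averaged -0.32 ± 0.10 for own diet (adjusted p = 0.091).

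Cyp2b genes respond to phenobarbital through CAR, and 1 of them, Cyp2b2, spread widely between animals. It ranged from 6.11 to 9.01 in the chow line on chow, from 6.88 to 9.65 in the chow line on HFD, from 7.50 to 9.75 in the HFD line on chow and from 6.18 to 9.01 in the HFD line on HFD. Each group covered most of the range of all 24 animals. Its within-group SD of 1.004 was reached by 0.216% of probe sets with a mean intensity of 300 to 1000, whose median SD was 0.20. The other Cyp2b probe sets had SDs of 0.29 to 0.35. The next largest SDs were 0.67 for Cyp2c11, 0.65 for Cyp3a23-3a1 and 0.63 for Cyp3a18. Own diet gave -0.26 ± 0.49 for Cyp2b2 in the chow line and -0.68 ± 0.54 in the HFD line, and 0.25 ± 0.18 and -0.13 ± 0.19 for Cyp2b1.

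In family 1 the differences were small. Cyp1a2, which oxidises caffeine, ran from 11.53 to 12.29 over all 24 animals and gave 0.05 ± 0.11 for own diet in the chow line and -0.16 ± 0.11 in the HFD line. Cyp1a1, which is low until the aryl hydrocarbon receptor is activated, had a mean intensity of 70.5 and gave -0.26 ± 0.13 and -0.08 ± 0.14 (adjusted p = 0.59 and 0.81). Cyp1b1 gave -0.18 ± 0.09 and 0.03 ± 0.09. Cyp2e1, the ethanol-oxidising enzyme, had 2 probe sets that disagreed in the chow line, 0.23 ± 0.07 at a mean intensity of 7885 and -0.17 ± 0.09 at 161.9 (adjusted p = 0.21 and 0.65).

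Slopes of log2 signal on the array median were low among the brightest probe sets and also among the dimmest. Among all probe sets the median slope was 0.41 below a mean intensity of 100 and 1.05 at 100 to 300. It was 1.08 at 300 to 1000, 0.91 at 1000 to 3000, 0.61 at 3000 to 6000 and 0.42 above 6000. The median within-group SD was 0.16 below 100, 0.20 at 300 to 1000 and 0.11 above 6000. Members at 1000 to 3000 had a median slope of 0.83, with -0.045 for Cyp2j4 and 1.91 for Cyp2t1. The 5 members above 6000 (Cyp2e1, Cyp2c12, Cyp2c7, Cyp2c23 and Cyp2d2) had a median slope of 0.43 and a median SD of 0.12. No member reached the top of its array, the closest being Cyp2e1 at 73.9% of the highest probe set. A slope below 1 means that a given difference in array brightness appears smaller in these 5 members. Whether differences between groups were reduced alike was not tested. Their differences of 0.02 to 0.23 for own diet in the chow line therefore cannot be read as smaller than those of dimmer genes.

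**Figure D4:**
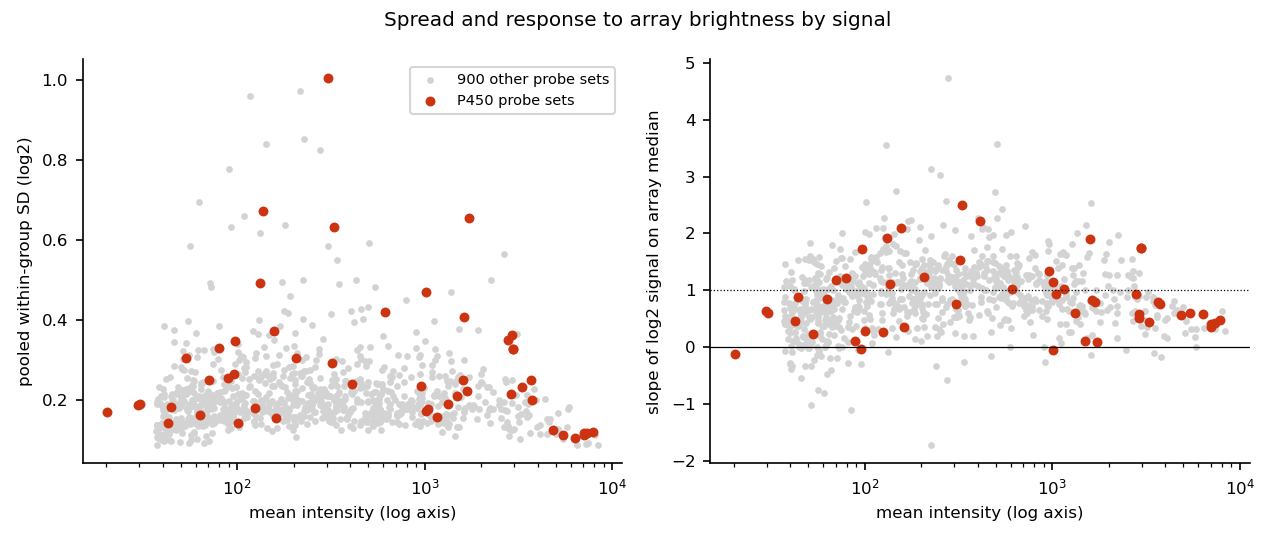
Pooled within-group SD (left) and slope of log2 signal on array median (right) against mean intensity on a log axis, for the 50 P450 probe sets (red) and 900 other probe sets (grey), with a dotted line at a slope of 1. Above a mean intensity of 6000 both fall, to medians of 0.12 and 0.43 among the 5 members there.

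The enzymes' partners and regulators were taken from lists. Of 7 electron donors and membrane partners 0 passed in any comparison, and Por, the P450 oxidoreductase, gave 0.35 ± 0.19 in the chow line (adjusted p = 0.63). Of 10 heme genes tested 0 passed, and Blvrb, a biliverdin reductase, came nearest at -0.31 ± 0.09 averaged over lines (adjusted p = 0.086). Of 16 regulatory receptors and factors 1 rose, Nr0b2, which encodes the repressor SHP, by 1.13 ± 0.25 in the chow line (adjusted p = 0.035) and 0.85 ± 0.18 averaged over lines (adjusted p = 0.011). The CAR gene Nr1i3 gave 0.57 ± 0.17 in the chow line (adjusted p = 0.23) and the PXR gene Nr1i2 gave 0.09 ± 0.13. Of 9 other CAR and PXR targets 1 fell, the export pump Abcc3, by 0.56 on the log2 scale averaged over lines (SE 0.11, adjusted p = 0.0035). All 9 were higher in the HFD line on chow without a call, against 46.2% of all probe sets. For own diet in the HFD line 8 of 9 were lower and 1 was called lower, and all 9 had a negative interaction. Of all probe sets, 28.4% and 29.8% were higher in these comparisons, in that order. Of 2 aryl hydrocarbon receptor targets 1 fell, the quinone reductase Nqo1, at -0.65 ± 0.15 averaged over lines (adjusted p = 0.015).

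Among zonation genes, Rhbg, an ammonia transporter of pericentral hepatocytes, fell (-0.57 ± 0.13 averaged over lines, adjusted p = 0.023, 1 of 10 pericentral genes), and so did Pck1, a gluconeogenic enzyme of periportal hepatocytes (-0.49 ± 0.13, adjusted p = 0.039, 1 of 12). All 10 pericentral genes were lower in the HFD line on HFD (median -0.26, all probe sets -0.10). All 10 had a negative interaction (median -0.27, all probe sets -0.10). For own diet in the HFD line 9 of 10 were lower (median -0.18, all probe sets -0.09). Of the 12 periportal genes 11 were lower in the HFD line on HFD (median -0.09). The part of zonation in the P450 differences was not tested.

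Cell-type markers moved beside these results, and fewer cells of a type cannot be told apart from less RNA per cell in bulk liver. All 11 hepatocyte markers were higher on HFD in the chow line (median 0.14) and lower in the HFD line on HFD (median -0.12), but 4 of 11 were higher in each comparison after quantile normalization. Their summed intensity ran from 73631 to 89216 in the chow line on chow, 85300 to 89674 in the chow line on HFD, 77411 to 92344 in the HFD line on chow and 78304 to 87433 in the HFD line on HFD. Markers of Kupffer cells and macrophages lay below chow on HFD for all 11 genes in both lines (medians -0.48 and -0.32), except that 2 of 11 were higher in the HFD line after quantile normalization, and Marco, Cd5l and Vsig4 passed averaged over lines. Their summed intensity ran from 6258 to 10348, 3705 to 6621, 5093 to 9062 and 4593 to 7547 in the same order of groups. Averaged over lines, own diet raised 1 of 8 stellate cell markers (Rgs5, 0.57) and 1 of 9 fat-cell markers (Fabp4, 0.62). It lowered 1 of 5 bile duct markers (Epcam, -0.55) and 1 of 6 pancreatic acinar markers (Cpa1, -1.43). Cpa1 had a mean intensity of 3387, whereas the other acinar markers on the array lay at 18.8 to 60.4, all below the array medians. No sinusoidal endothelial, lymphocyte or erythroid marker passed in any comparison. All 8 stellate markers were lower in the HFD line on chow (median -0.20), and 7 of 8 after centring, without a call. The part of these markers in the P450 differences was not tested.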

How the data were processed

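Liver RNA of 24 rats was hybridised to Affymetrix whole-transcript arrays, 1 per animal, from 200 ng of total RNA. The authors deposited linear intensity values per probe set, for which the submitters' processing notes name Affymetrix Expression Console and PLIER. PLIER's options and any normalization between arrays were not given in the sources used here. Genes were named from the platform annotation and updated through RefSeq by Entrez ID (46 of 46 matched, 0 symbols changed).

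Values were taken to log2(intensity + 16), a filter removed the dimmest 25% of probe sets by mean, and 4 group means were fitted to 15687 probe sets with limma 3.58.1 in R 4.3.3 (trended eBayes, Benjamini-Hochberg adjusted p under 0.05). The fit was tested on simulated data. Named were members that passed in any comparison, the 3 with the smallest p in each, sex-biased P450s, Cyp1a1, Cyp1a2, Cyp1b1, Cyp2b1, Cyp2e1 and Cyp3a23-3a1, and others by subfamily; the genes named for spread or lack of overlap were chosen after their values were seen. Members, lists and alternatives were chosen with earlier results of these data known. The number of arrays limits the precision.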

Additional observations from a re-analysis of the deposited data

Results flagged for a closer look

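In 12 of 184 pairs of member and group (6.5%), 1 animal's log2 signal lay apart from the rest of its group by Dixon's 95% criterion, and chance gives about 5%. Cyp1a1 was high on array 25 (7.33) of the chow line on chow and low on array 45 (5.93) of the HFD line on HFD. In the chow line on chow, Cyp2b2 was low on array 26 (6.11) and 1 Cyp2c13 probe set was high on array 21 (11.32). In the chow line on HFD, Cyp2a1 was high on array 35 (12.74) and Cyp2c23 low on array 32 (12.57). In the HFD line on chow, Cyp2b12 was low on array 42 (6.71), Cyp2a1 and Cyp2u1 were low on array 40 (12.18 and 6.62), Cyp2c11 was high on array 39 (7.78) and Cyp2d3 low on array 39 (11.13). In the HFD line on HFD, Cyp2b12 was low on array 24 (7.44). Limma's interaction test called 0 of 46 members (0% of all probe sets), and 10 of 46 at an unadjusted p under 0.05 (21.7%, against 9.71% of all probe sets).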

How the results depend on the processing

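With quantile normalization 1 member was called for own diet in the chow line (Cyp2r1, lower, adjusted p = 0.020) and 1 in the HFD line (Cyp2c22, higher, adjusted p = 0.047), against 0 in each without it and with all arrays. For own diet averaged over lines the 9 alternatives called 2 to 4 members. Cyp2r1 and Cyp2c22 passed in all 9 (adjusted p up to 0.019 and 0.043). Cyp2d4 missed the threshold with quantile normalization (0.069), with centring (0.058) and without arrays 21, 22, 24 and 25 (0.063). The dim Cyp2c12 probe set passed with quantile normalization (0.031), with centring (0.030) and with those 4 arrays as a block (0.035). Grandpaternal comparisons and the interaction called 0 members under each alternative. Leaving out 1 array at a time gave 0 to 1 members for own diet in the chow line, 0 to 2 in the HFD line, 1 to 5 averaged over lines and 0 to 0 in the other 4 comparisons.

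Over all probe sets, own diet in the chow line called 50, but 89 with quantile normalization and 79 with centring, and own diet in the HFD line called 118, but 77 without the 4 arrays. Leaving out 1 array gave 34 to 56, 56 to 148 and, averaged over lines, 214 to 468 (312 with all arrays), and 0 to 57 for the interaction. Of 5826 alternative values of named members, 5611 kept their sign and their side of the threshold, 48 changed side, and 167 changed sign without being called before or after (adjusted p of 0.74 or more after the change). The cause of these changes was not tested.

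Of the 167, 63 arose with alternatives other than leaving out 1 array. Dim, middle and bright name the probe sets of a gene that has more than 1. With quantile normalization, own diet in the chow line became -0.011 for Cyp1a2. Own diet in the HFD line became 0.011 for Cyp2a1, 0.067 for Cyp2a2, 0.042 for Cyp2c24, 0.060 for the middle Cyp2c13, 0.095 for Cyp3a18 and 0.067 for Cyp2j4. Grandpaternal diet on own chow became -0.0034 for Cyp2a1, 0.014 for the dim Cyp2e1, -0.012 for Cyp2c24, -0.0024 for Cyp2c7, -0.012 for Cyp1a2, -0.018 for the bright Cyp2c12 and 0.022 for the dim Cyp2c12. Grandpaternal diet on own HFD became 0.073 for the dim Cyp2e1, 0.074 for Cyp2c22, 0.0018 for the bright Cyp2c13 and 0.024 for the dim Cyp2c12. The interaction became 0.058 for the dim Cyp2e1, 0.024 for the middle Cyp2c13, 0.15 for the bright Cyp2c13 and 0.0017 for the dim Cyp2c12. Own diet averaged over lines became 0.048 for the middle Cyp2c13 and -0.0035 for the bright Cyp2c12. Grandpaternal diet averaged over own diets became 0.044 for the dim Cyp2e1, 0.058 for Cyp1b1 and 0.023 for the dim Cyp2c12. With centring, own diet in the HFD line became 0.036 for Cyp3a18, and grandpaternal diet on own chow became 0.035 for the dim Cyp2e1. Grandpaternal diet on own HFD became 0.054 for the dim Cyp2e1, 0.023 for Cyp2c22, 0.020 for Cyp1a1 and 0.024 for the dim Cyp2c12. The interaction became 0.020 for the dim Cyp2e1, 0.030 for the bright Cyp2c13 and 0.029 for the dim Cyp2c12. Own diet averaged over lines became 0.023 for the middle Cyp2c13. Grandpaternal diet averaged over own diets became 0.045 for the bright Cyp2e1, 0.044 for the dim Cyp2e1, 0.0073 for Cyp2c7, 0.058 for Cyp1b1, 0.0035 for Cyp1a2, 0.016 for the bright Cyp2c12 and 0.0095 for the dim Cyp2c12. With an offset of 1, the interaction became -0.0042 for Cyp2r1. Without arrays 21, 22, 24 and 25, own diet in the HFD line became -0.038 for Cyp2c11 and -0.022 for Cyp1b1. Grandpaternal diet on own chow became -0.016 for Cyp2d4, and grandpaternal diet on own HFD became 0.022 for the dim Cyp2e1. The interaction became 0.066 for the dim Cyp2e1, -0.14 for Cyp2r1 and 0.0076 for the dim Cyp2c12. Own diet averaged over lines became -0.054 for Cyp2s1. Grandpaternal diet averaged over own diets became 0.0091 for the bright Cyp2e1, 0.0024 for Cyp1b1 and 0.023 for Cyp1a2. With those 4 arrays as a block, own diet in the HFD line became -0.0056 for Cyp1b1 and -0.0038 for the bright Cyp2c13, and grandpaternal diet on own chow became 0.11 for Cyp2c11. The interaction became 0.032 for the dim Cyp2e1, -0.056 for Cyp2r1 and 0.052 for the dim Cyp2c12. Grandpaternal diet averaged over own diets became 0.017 for Cyp1b1.

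Leaving out 1 array gave the other 104 changes of sign. Own diet in the chow line ranged from -0.014 to 0.070 for Cyp2a3 and -0.0012 to 0.085 for the middle Cyp2c13. Own diet in the HFD line ranged from -0.038 to 0.75 for Cyp2c11, -0.25 to 0.21 for Cyp3a18, -0.26 to 0.063 for Cyp2j4, -0.022 to 0.098 for Cyp1b1 and -0.12 to 0.011 for Cyp1a1. Grandpaternal diet on own chow ranged from -0.021 to 0.23 for Cyp2b1, -0.041 to 0.033 for the dim Cyp2e1, -0.065 to 0.061 for Cyp2c24, -0.0021 to 0.21 for Cyp3a9, -0.039 to 0.26 for Cyp3a18, -0.046 to 0.13 for Cyp2d4, -0.022 to 0.12 for Cyp1a2 and -0.13 to 0.048 for the dim Cyp2c12. Grandpaternal diet on own HFD ranged from -0.072 to 0.038 for the dim Cyp2e1, -0.73 to 0.056 for Cyp2c11, -0.11 to 0.023 for Cyp1a1 and -0.12 to 0.012 for the dim Cyp2c12. The interaction ranged from -0.067 to 0.043 for the dim Cyp2e1, -0.60 to 0.19 for Cyp2c11, -0.080 to 0.11 for Cyp2r1, -0.14 to 0.046 for the bright Cyp2c13 and -0.11 to 0.065 for the dim Cyp2c12. Own diet averaged over lines ranged from -0.0070 to 0.12 for Cyp2b1, -0.016 to 0.035 for Cyp2s1 and -0.045 to 0.016 for the middle Cyp2c13. Grandpaternal diet averaged over own diets ranged from -0.043 to 0.0047 for the bright Cyp2e1, -0.039 to 0.016 for the dim Cyp2e1 and -0.033 to 0.031 for Cyp1b1.

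No paired analysis was possible because no animal number occurs in more than 1 group. Signals above about 6000 respond weakly to array brightness, and probe sets below the array median have only a small range over background. Whether differences between groups were reduced at either end was not tested.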
